A study of Homo sapiens with 21 samples.

Results

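NR3C1, the gene of the glucocorticoid receptor, and 5 genes that the hormone-bound receptor is known to switch on, SGK1, TSC22D3, FKBP5, DUSP1 and CEBPD, were followed in HCT-116 cells given serum vesicles. The 6 genes were taken by name from 65065 genes in the count table, and all 6 passed the filter on low counts that left 19556 genes for testing. HCT-116 is a human colorectal carcinoma line of epithelial-like cells. The cells received extracellular vesicles, the membrane-bound particles shed by cells, which were captured from serum by the GlyExo-Capture method. Vesicles labelled HCC+ came from the serum of patients with HCC and those labelled HCC- from the serum of healthy people. Each was given at 1.2, 0.24 or 0.048 mg/mL, and blank cells received none. All groups were grown in medium with exosome-depleted serum. Each of the 7 groups had 3 libraries of poly(A) RNA, 21 in all.

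Glucocorticoids enter the cell and bind a receptor that is held in the cytoplasm by HSP90 and its partner proteins. The loaded receptor moves to the nucleus, where it binds paired DNA elements and raises the transcription of some genes while holding back others, many of them inflammatory. In intestinal epithelium, glucocorticoids and the related mineralocorticoids are best known for promoting sodium uptake, in which the kinase SGK1 takes part. FKBP5 belongs to the HSP90 complex itself and lowers the receptor's affinity for hormone, so that its induction forms a feedback loop. The labels name no steroid among the treatments.

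At the top dose the 5 target genes did not move together. With HCC- vesicles at 1.2 mg/mL, SGK1 rose 3.50-fold and TSC22D3 rose 2.55-fold over the blank, while FKBP5 fell to 0.440 of its blank level. With HCC+ vesicles at the same dose, SGK1 rose 2.28-fold and FKBP5 fell to 0.714 of the blank, and TSC22D3 stood at 0.954 of it with no call. DUSP1 rose with either source. CEBPD rose 1.37-fold and NR3C1 fell to 0.769 of the blank with HCC- vesicles, and neither was called with HCC+ vesicles.

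The libraries held between 31.22 and 64.01 M (mega) counts. The 6 genes had from 113 counts, for SGK1, to 9873 counts, for FKBP5, in a library. A level is a library-size-scaled count after TMM scaling (CPM), with the mean and SD of a group's 3 libraries. Each log2 fold change carries its standard error, from a quasi-likelihood fit in edgeR that used all 21 libraries. A gene is said to rise or fall, or is called, where the Benjamini-Hochberg adjusted p over all tested genes was under 0.05. The labels do not say whether a group's 3 libraries were grown as separate cultures, nor how many serum donors stood behind each vesicle preparation. The p-values thus measure the spread between these libraries, which may be technical. In such bulk RNA, fewer cells of a type and less RNA per cell cannot be told apart.

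All 6 genes lie on the minus strand of GRCh38, and their counts were taken over annotated exons. NR3C1 (ENSG00000113580) lies at chr5:143277931-143435512 and DUSP1 (ENSG00000120129) at chr5:172768096-172771195. SGK1 (ENSG00000118515) lies at chr6:134169246-134318112 and FKBP5 (ENSG00000096060) at chr6:35573585-35728583. TSC22D3 (ENSG00000157514) lies at chrX:107713221-107777342. The sixth gene is CEBPD (ENSG00000221869).

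Promoter sequence was read for every gene of the 6 with a window. RefSeq windows of build GRCh38.p14 were found for 5 of the 6 genes, 17 windows in all, of which NR3C1 had 7, TSC22D3 had 4, SGK1 had 3, FKBP5 had 2 and DUSP1 had 1. The 250 bases before each start were searched on both strands for the palindromic glucocorticoid response element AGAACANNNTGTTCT, for its single arm AGAACA, for the cyclic AMP response element TGACGTCA with its core TGACG, for the TATA box TATAAA and for the E-box CACGTG. These 6 motifs and the stretches printed were chosen after matches had been looked at, so the matches are a description. The stretches shown belong to the 4 genes called with HCC- vesicles at 1.2 mg/mL that the results turn on, SGK1, TSC22D3, DUSP1 and FKBP5, of which TSC22D3 was not called with HCC+ vesicles. They are written 5′ to 3′ on the minus strand, with matches in capitals, and leave out all but 25 bases that lie in annotated exons of the same gene.
DUSP1, chr5:172771196-172771445: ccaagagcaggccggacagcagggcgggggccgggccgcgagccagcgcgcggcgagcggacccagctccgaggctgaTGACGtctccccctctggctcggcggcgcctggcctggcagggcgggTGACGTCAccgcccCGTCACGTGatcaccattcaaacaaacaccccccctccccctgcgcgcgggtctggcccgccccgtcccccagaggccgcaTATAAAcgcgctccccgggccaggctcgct
TSC22D3, chrX:107717103-107717127: gccccTGACGccatgTGACGcagcc
SGK1, chr6:134174897-134175116: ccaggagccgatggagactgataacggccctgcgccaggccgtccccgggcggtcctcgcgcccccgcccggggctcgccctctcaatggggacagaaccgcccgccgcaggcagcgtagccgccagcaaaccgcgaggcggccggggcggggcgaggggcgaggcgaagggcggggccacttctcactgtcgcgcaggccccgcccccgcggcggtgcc
FKBP5, chr6:35688943-35689165: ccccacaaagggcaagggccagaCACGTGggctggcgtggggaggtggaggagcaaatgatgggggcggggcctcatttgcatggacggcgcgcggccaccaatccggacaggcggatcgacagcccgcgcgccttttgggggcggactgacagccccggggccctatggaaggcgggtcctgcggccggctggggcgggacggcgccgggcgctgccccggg

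The DUSP1 window held the full cyclic AMP response element at base -125 from the start, which 1.65% of all 35116 windows of this length held. The core TGACG matched 4 times there, at -172, -125, -122 and -111, and the matches at -125 and -122 overlap within the full element. The TSC22D3 stretch held the core at -60 and -50, upstream of a TATA box at -29. Some windows of a gene overlap one another. The core was in 5 of the 17 windows and in 21.2% of all windows. The TATA box was in 6 of the 17, including every SGK1 window, and in 10.7% of all. The E-box was in 2 of the 17, at -108 of DUSP1, where it overlaps the core at -111, and at -227 of the FKBP5 window shown, and in 6.34% of all. The SGK1 stretch held no match and ends before the TATA box of its window at -27. The single arm AGAACA was in 0 of the 17 windows and in 12.4% of all, and the full palindrome was in 1 of 35116. Receptor elements commonly lie far from the start, and a window without these letters says nothing of the receptor's binding.

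Across the blank libraries, levels per kb of exon spread over a wide range. FKBP5 was highest at 15.2 ± 0.98 CPM per kb, followed by DUSP1 at 4.41 ± 0.33 and TSC22D3 at 2.93 ± 0.18. CEBPD stood at 2.91 ± 0.20, NR3C1 at 1.89 ± 0.28 and SGK1 lowest at 0.404 ± 0.038. With HCC- vesicles at 1.2 mg/mL the top of this order closed up: TSC22D3 reached 7.48 ± 2.01 CPM per kb, beside 6.69 ± 0.53 for FKBP5 and 6.43 ± 0.84 for DUSP1. SGK1, at 1.42 ± 0.18, then stood beside NR3C1 at 1.45 ± 0.27. The length is that of all annotated exons of a gene together, so these levels depend on which transcripts were made.

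**Figure D1:**
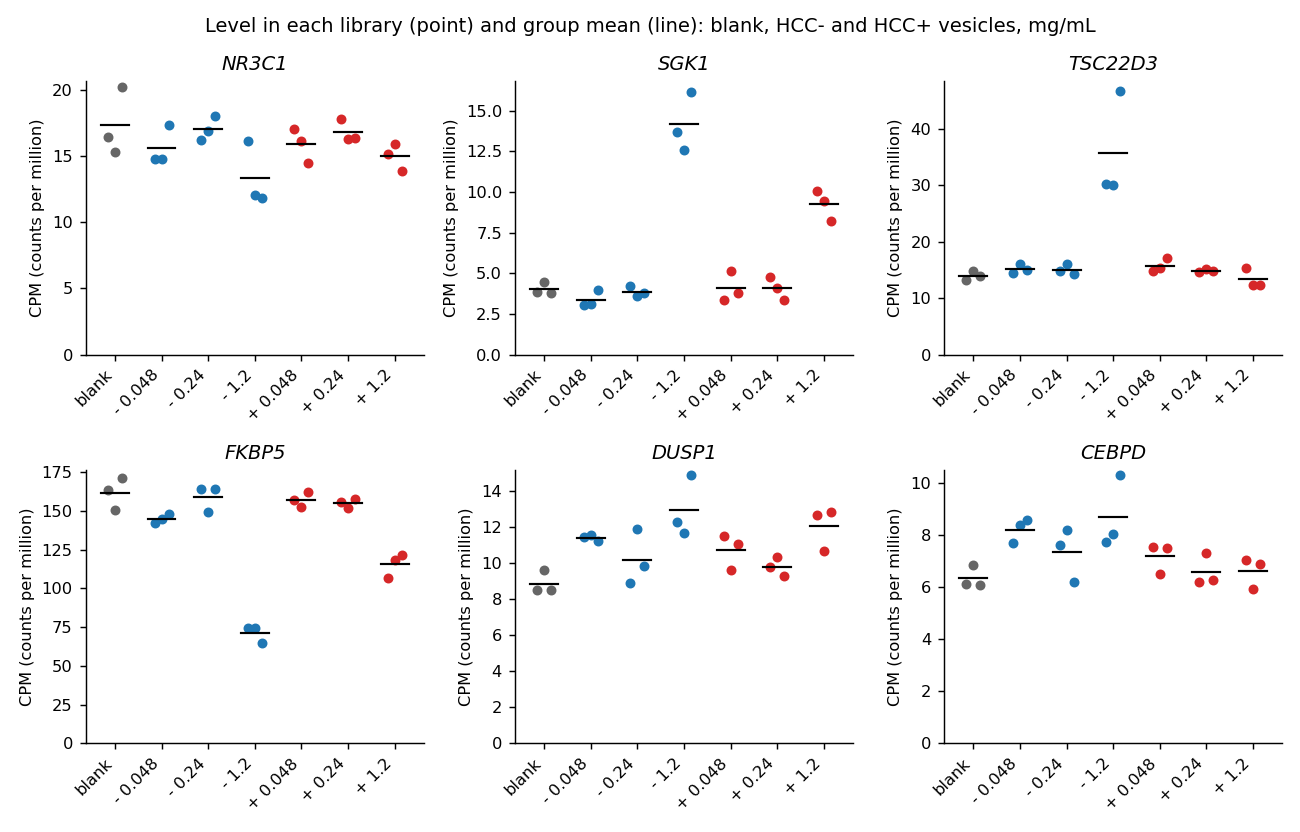
Level of the receptor gene and its 5 target genes in each of the 21 libraries, in CPM on linear axes from 0, for blank cells and for HCC- and HCC+ vesicles by dose in mg/mL. Points are libraries and lines are means of 3. SGK1 stands apart in both groups at 1.2 mg/mL, TSC22D3 in the HCC- group at 1.2 mg/mL, and FKBP5 is lower in both.

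The receptor gene NR3C1 stayed between 11.8 and 20.2 CPM in all 21 libraries. Its level was 16.5, 15.3 and 20.2 CPM in the 3 blank libraries, 15.2, 15.9 and 13.9 with HCC+ vesicles at 1.2 mg/mL, and 16.1, 12.0 and 11.8 with HCC- vesicles at 1.2 mg/mL. Replicate 1 of the last group lay within the blank range and the other two below it. At the lower doses it was 17.8, 16.3 and 16.4 for HCC+ and 16.2, 16.9 and 18.1 for HCC- at 0.24 mg/mL, and 17.0, 16.2 and 14.5 for HCC+ and 14.8, 14.8 and 17.3 for HCC- at 0.048 mg/mL. In the order of group means, from the blank at 17.3 ± 2.58 CPM to HCC- at 1.2 mg/mL at 13.3 ± 2.44, every group overlapped the next.

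Against the blank NR3C1 fell with HCC- vesicles at 1.2 mg/mL, by 0.38 ± 0.12 on the log2 scale (adjusted p = 0.00620). This call was lost without blank replicate 3 (log2 fold change -0.26, adjusted p = 0.0824), without replicate 2 of the treated group (-0.30, 0.0505) and without its replicate 3 (-0.29, 0.0608). Scaling by total count alone gave -0.10 (0.497) and removing trends with GC content and length gave -0.14 (0.202). The median of all tested genes was 0.05 in the main fit, 0.33 under total count scaling and 0.24 with the trends removed. With HCC+ vesicles at 1.2 mg/mL the change of -0.21 ± 0.12 was not called (0.166). The 3 genes whose log2 CPM over 21 libraries ran most like NR3C1, of 12262 genes searched, were RC3H2, RAB14 and NCKAP1, at Pearson r of 0.86, 0.83 and 0.83.

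SGK1, the serum and glucocorticoid regulated kinase that protects the epithelial sodium channel from removal, rose most. Its level was 3.82, 4.48 and 3.82 CPM in the blank libraries, 10.1, 9.45 and 8.21 with HCC+ vesicles at 1.2 mg/mL, and 13.7, 12.6 and 16.2 with HCC- vesicles at 1.2 mg/mL. The 3 groups did not overlap one another. At 0.24 mg/mL it was 4.77, 4.12 and 3.38 for HCC+ and 4.23, 3.59 and 3.82 for HCC-, and at 0.048 mg/mL 3.39, 5.15 and 3.79 for HCC+ and 3.08, 3.09 and 3.96 for HCC-. These 4 groups overlapped the blank, and neighbours among them overlapped each other.

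The rise of SGK1 over the blank was 1.19 ± 0.16 on the log2 scale with HCC+ vesicles (adjusted p = 5.82e-07) and 1.81 ± 0.16 with HCC- vesicles (2.07e-11). Among all tested changes these stood at percentiles 94.18 and 94.81. The genes most like SGK1 over the 21 libraries were the linker histone gene H1-2 at r = 0.97, S100A3 at 0.97 and SLC5A3 at 0.97. SLC5A3, the myo-inositol transporter of osmotic stress, rose with HCC+ and HCC- vesicles by 1.80 and 3.02 on the log2 scale.

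TSC22D3 encodes the glucocorticoid-induced leucine zipper protein GILZ, which restrains inflammatory transcription factors. Its level was 13.2, 14.8 and 13.9 CPM in the blank libraries, 15.4, 12.4 and 12.4 with HCC+ vesicles at 1.2 mg/mL, and 30.1, 30.1 and 46.7 with HCC- vesicles at 1.2 mg/mL. Each library of the last group lay above all 18 others, and replicate 3 lay above its 2 fellows. At the lower doses it was 14.6, 15.2 and 14.9 for HCC+ and 14.7, 16.1 and 14.3 for HCC- at 0.24 mg/mL, and 14.7, 15.3 and 17.0 for HCC+ and 14.5, 16.0 and 14.9 for HCC- at 0.048 mg/mL. Neighbours in the order of these groups, the blank and HCC+ at 1.2 mg/mL overlapped.

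The rise of TSC22D3 with HCC- vesicles at 1.2 mg/mL was 1.35 ± 0.12 on the log2 scale (adjusted p = 8.58e-11), and 1.11 without replicate 3 of that group. With HCC+ vesicles at the same dose the change was -0.07 ± 0.13 (0.730). KANSL1, CMTM3 and the noncoding gene ZNF584-DT ran most like it, at r of 0.97, 0.97 and 0.96. These 3 genes changed by 0.51, 1.13 and 1.33 with HCC- vesicles and by 0.06, 0.06 and 0.05, uncalled, with HCC+ vesicles.

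FKBP5 encodes the co-chaperone FKBP51 and is among the genes most reliably induced by glucocorticoids. In these cells it fell at the top dose. Its level was 164, 151 and 171 CPM in the blank libraries, 107, 118 and 121 with HCC+ vesicles at 1.2 mg/mL, and 74.5, 74.3 and 64.6 with HCC- vesicles at 1.2 mg/mL. None of these 3 groups overlapped. At 0.24 mg/mL it was 156, 152 and 158 for HCC+ and 164, 149 and 164 for HCC-, and at 0.048 mg/mL 157, 152 and 162 for HCC+ and 142, 145 and 148 for HCC-. The HCC- group at 0.048 mg/mL lay just below the blank and every other group but the 2 at 1.2 mg/mL.

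With HCC+ vesicles at 1.2 mg/mL the log2 fold change of FKBP5 against the blank was -0.49 ± 0.07 (adjusted p = 7.46e-07). With HCC- vesicles it was -1.19 ± 0.07 (1.21e-15), at percentile 3.36 of all tested changes. The genes most like FKBP5 were ARHGAP19, HNRNPK and RRM1, each at r = 0.99. RRM1, a subunit of ribonucleotide reductase, changed by -0.71 and -1.69 with HCC+ and HCC- vesicles, and HNRNPK, an RNA-binding protein, by -0.52 and -1.12.

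DUSP1, a phosphatase that switches off the p38 and JNK kinases, rose by a smaller step. Its level was 8.50, 9.62 and 8.48 CPM in the blank libraries, 12.7, 10.7 and 12.9 with HCC+ vesicles at 1.2 mg/mL, and 12.3, 11.7 and 14.9 with HCC- vesicles at 1.2 mg/mL. Both treated groups lay above the blank and overlapped each other. At 0.24 mg/mL it was 9.80, 10.3 and 9.27 for HCC+ and 8.91, 11.9 and 9.82 for HCC-, and at 0.048 mg/mL 11.5, 9.62 and 11.1 for HCC+ and 11.4, 11.6 and 11.2 for HCC-. The rise over the blank at 1.2 mg/mL was 0.44 ± 0.12 on the log2 scale with HCC+ vesicles (adjusted p = 0.00399) and 0.54 ± 0.12 with HCC- vesicles (0.000229). SRC and MAST2 were among the genes that ran most like DUSP1, each at r = 0.90.

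CEBPD encodes a transcription factor of the acute-phase response. Its level was 6.09, 6.84 and 6.09 CPM in the blank libraries, 7.04, 5.90 and 6.88 with HCC+ vesicles at 1.2 mg/mL, and 7.72, 8.03 and 10.3 with HCC- vesicles at 1.2 mg/mL. The HCC- libraries lay above the blank, and replicate 3 was the highest. At 0.24 mg/mL it was 6.19, 7.29 and 6.26 for HCC+ and 7.61, 8.17 and 6.19 for HCC-, and at 0.048 mg/mL 7.54, 6.48 and 7.47 for HCC+ and 7.67, 8.37 and 8.55 for HCC-. Every neighbouring pair in the order of group means overlapped.

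The rise of CEBPD with HCC- vesicles at 1.2 mg/mL was 0.45 ± 0.13 on the log2 scale (adjusted p = 0.00448), and without replicate 3 of that group it was 0.32 and no longer called (0.0566). With HCC+ vesicles the change was 0.06 ± 0.13 (0.791). ICAM1, FBXW4 and CUL9 ran most like CEBPD, at r of 0.89, 0.86 and 0.86. Likeness is a description over libraries that share groups and depth. Over the 15 libraries without the 1.2 mg/mL dose, r was 0.42, 0.43 and 0.26 for the genes most like SGK1, 0.75, 0.62 and 0.21 for those most like TSC22D3, and 0.76, 0.73 and 0.65 for those most like FKBP5. For ICAM1, FBXW4 and CUL9 with CEBPD it was 0.86, 0.87 and 0.81. Between SGK1 and FKBP5, r was -0.92 over 21 libraries and 0.23 over the 15. DUSP1 and CEBPD had r = 0.72 over 21 libraries and 0.79 over those 15.

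In counts, 3 of the 6 genes were called with HCC+ vesicles at 1.2 mg/mL against the blank, where 33.0% of all tested genes were called. Of these SGK1 and DUSP1 rose, as did 15.6% of all genes, and FKBP5 fell, as did 17.4%. With HCC- vesicles at 1.2 mg/mL all 6 were called, where the background was 53.3%. That count was 5 under total count scaling, with the trends removed, and without HCC- replicate 2 or blank replicate 3, and 4 without HCC- replicate 3. Of all 19556 tested genes, 11225 were called under total count scaling and 11455 with the trends removed. In the main fit it was 10418. SGK1, TSC22D3, DUSP1 and CEBPD rose, beside 24.8% of all genes, and FKBP5 and NR3C1 fell, beside 28.5%. The median log2 fold change of the 6 genes was -0.01 with HCC+ and 0.50 with HCC- vesicles, and that of all tested genes was 0.01 and 0.05. The counts of called genes are thus to be read against backgrounds of 33.0% and 53.3%.

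**Figure D2:**
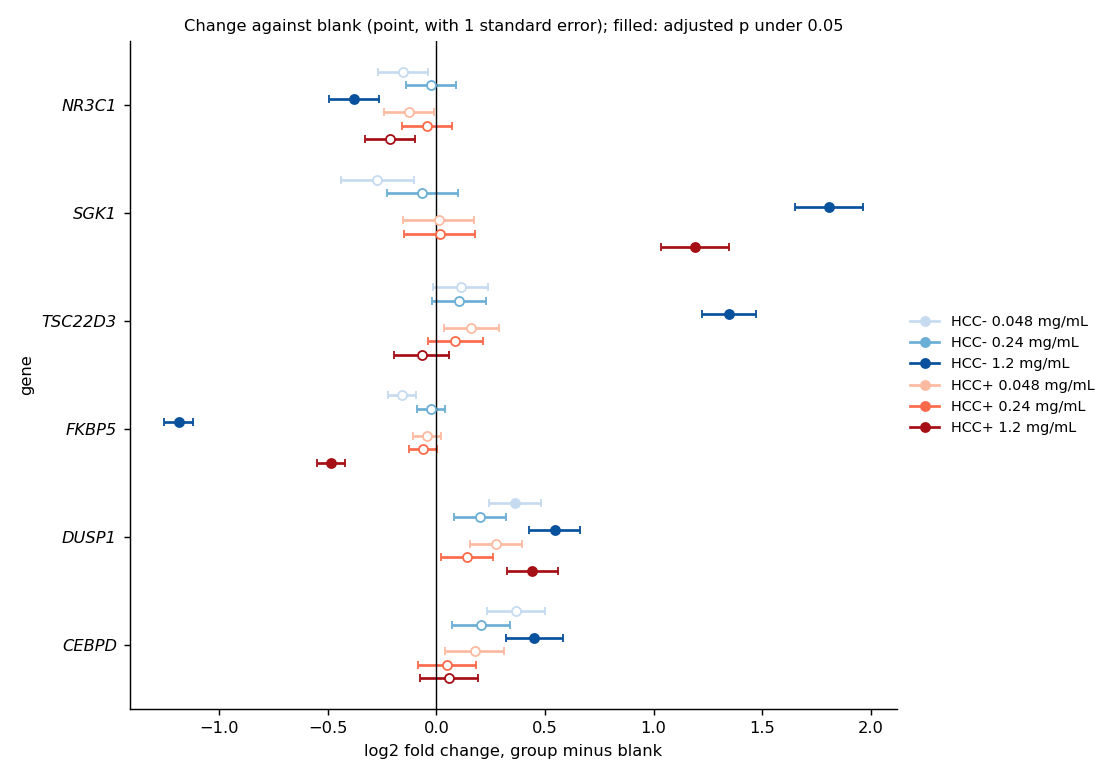
Log2 fold change against the blank for each gene, source and dose, with 1 standard error, filled where the adjusted p was under 0.05. At 1.2 mg/mL SGK1 lies at 1.19 and 1.81 and FKBP5 at -0.49 and -1.19 for HCC+ and HCC- vesicles, and TSC22D3 at -0.07 and 1.35. The points at 0.24 mg/mL lie near 0.

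At the lower doses few changes were seen. With HCC+ vesicles, 0 of the 6 genes were called at 0.24 mg/mL, where 0.00511% of all genes were called, and 0 at 0.048 mg/mL, where 0% were. With HCC- vesicles at 0.24 mg/mL 0 of 6 were called, beside 0%. These counts are from edgeR and were also 0 with DESeq2. At an unadjusted p under 0.05 they were 0, 1 and 0, the gene being DUSP1 with HCC+ vesicles at 0.048 mg/mL at 0.28 ± 0.12 on the log2 scale. In the same order, 1193, 944 and 905 of all 19556 tested genes had such a p.

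With HCC- vesicles at 0.048 mg/mL, DUSP1 was called, 1 gene of the 6, where 16.4% of all genes were called. That background of 3216 genes leaned on single blank libraries. It was 1 gene without blank replicate 1, 12 without blank replicate 3 and 5726 without blank replicate 2. With trends with GC content and length removed it was 37. DUSP1 was higher by 0.36 ± 0.12 on the log2 scale (adjusted p = 0.0381), with no overlap between the groups. CEBPD at 0.37 ± 0.13 (0.0567) and FKBP5 at -0.16 ± 0.06 (0.0885) missed the threshold, also with no overlap. How common such a lack of overlap was among all genes was not counted. The DUSP1 call was lost when only those 2 groups were fitted (0.0634), when trends with GC content and length were removed (log2 fold change 0.20), and when any single library other than blank replicate 2 was left out (adjusted p = 0.0716 to 0.177). Without blank replicate 2, and with DESeq2, DUSP1, CEBPD and FKBP5 were all called. The summed HCT-116 epithelial markers in these treated libraries, 4706 to 5191 CPM, lay above the blank libraries at 3855 to 4694, and their part in the result was not tested.

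The sources differed at 1.2 mg/mL for 4 of the 6 genes, where 35.3% of all genes were called. TSC22D3, SGK1 and CEBPD were lower with HCC+ than with HCC- vesicles, as were 12.7% of all genes, and FKBP5 was higher, as were 22.6%. The log2 difference, HCC+ minus HCC-, was -1.42 ± 0.12 for TSC22D3 (adjusted p = 1.49e-10) and -0.62 ± 0.14 for SGK1 (0.000977). FKBP5 differed by 0.70 ± 0.07 (7.61e-10) and CEBPD by -0.39 ± 0.13 (0.0164), and none of the 4 genes had overlapping libraries. The share of all tested genes without overlap was not counted, so this adds no support to the calls. The CEBPD call was lost without HCC+ replicate 2 (-0.33, 0.0911) or HCC- replicate 3 (-0.26, 0.164).

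DUSP1 and NR3C1 were not called between the sources at 1.2 mg/mL. Their differences were -0.10 ± 0.11 (adjusted p = 0.527) and 0.17 ± 0.11 (0.272), and their libraries overlapped. Without HCC- replicate 1, which held the highest NR3C1 level of its group, NR3C1 was called higher with HCC+ vesicles by 0.33 (0.0293). At 0.24 mg/mL 0 of 6 genes were called between the sources by edgeR or DESeq2, where the background was 0%, and 0 of 6 at 0.048 mg/mL, where it was 3.54%. No member had an unadjusted p under 0.05 in either, a count of 0. Of all 19556 tested genes, 462 had such a p at 0.24 mg/mL and 4582 at 0.048 mg/mL.

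The dose step from 0.24 to 1.2 mg/mL compares groups that both received vesicles and does not use the blank. With HCC+ vesicles 3 of 6 genes were called, where 29.2% of all were. SGK1 rose by 1.17 ± 0.15 and DUSP1 by 0.30 ± 0.12 on the log2 scale, the latter at an adjusted p of 0.0490, and FKBP5 fell, at -0.42 ± 0.06. The DUSP1 call was lost without the filter on low counts (0.0658), with a replicate block (0.0562) and when any single library other than HCC+ replicate 2 at 1.2 mg/mL was left out (0.0637 to 0.179). With HCC- vesicles 5 of 6 were called, where 51.8% of all were.

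In the HCC- step, SGK1 rose by 1.87 ± 0.15, TSC22D3 by 1.24 ± 0.12 and DUSP1 by 0.34 ± 0.12, while FKBP5 and NR3C1 had log2 fold changes of -1.16 ± 0.07 and -0.35 ± 0.11. CEBPD, at 0.24 ± 0.13, was not called (adjusted p = 0.112). Without HCC- replicate 3 at 1.2 mg/mL the count was 3, as the calls of DUSP1 (0.24, 0.112) and NR3C1 (-0.26, 0.0879) were lost. The call of NR3C1 was also lost without replicate 2 of that group (0.0743), and that of DUSP1 without replicate 1 (0.116) or 3 (0.0564) of the group at 0.24 mg/mL. Scaling by total count turned the split from 3 higher and 2 lower to 4 higher and 1 lower, with CEBPD called and NR3C1 not. The median of all tested genes in this step was 0.04 in the main fit and 0.30 under that scaling.

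A test of whether this step differed between the sources called 3 of the 6 genes, where 21.3% of all genes were called. For TSC22D3 the HCC+ step minus the HCC- step was -1.40 ± 0.17 on the log2 scale (adjusted p = 5.85e-07). For SGK1 the difference was -0.70 ± 0.21 (0.0183), and for FKBP5 it was 0.74 ± 0.09 (6.10e-07). The SGK1 call was lost without HCC+ replicate 1 at 0.24 mg/mL (-0.57, 0.0803), HCC+ replicate 3 at 1.2 mg/mL (-0.63, 0.0566) or HCC- replicate 3 at 1.2 mg/mL (-0.60, 0.0681).

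**Figure D3:**
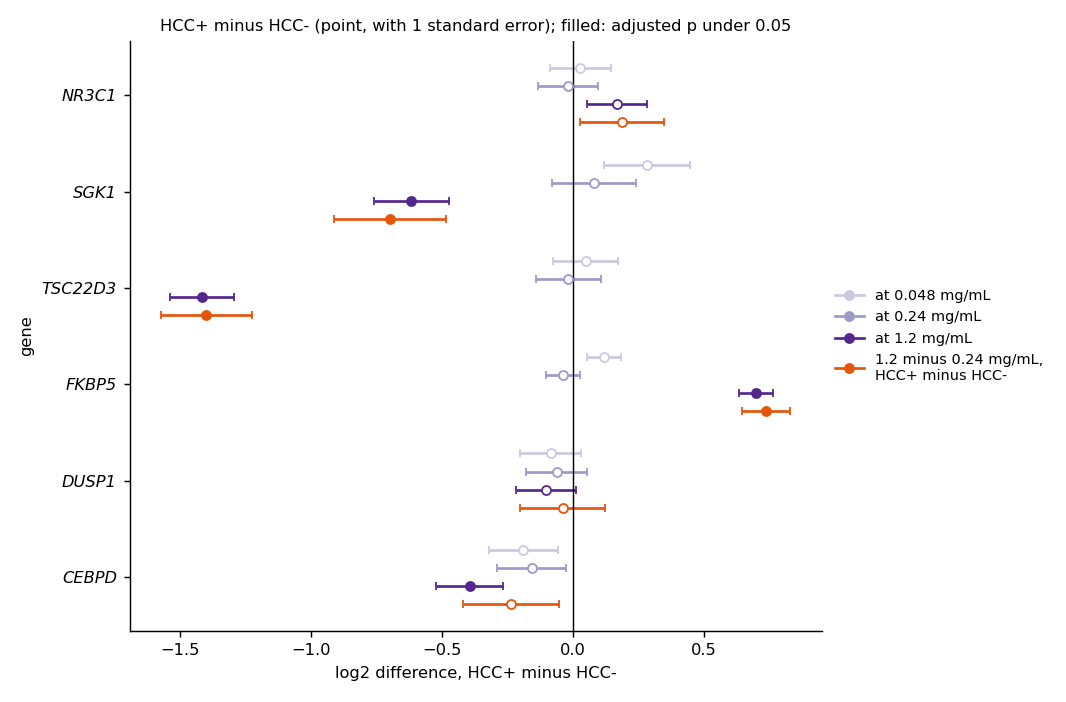
Log2 difference between HCC+ and HCC- vesicles at each dose, and the difference between the sources in the step from 0.24 to 1.2 mg/mL, with 1 standard error, filled where the adjusted p was under 0.05. At 1.2 mg/mL TSC22D3, SGK1 and CEBPD lie at -1.42, -0.62 and -0.39 and FKBP5 at 0.70. No point at 0.24 or 0.048 mg/mL is filled.

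The genes around the receptor were read from lists chosen with earlier results of these data known. HSP90 and its partners hold the receptor ready for hormone. Of 15 tested genes of the receptor, steroid metabolism and chaperone list, 1 rose and 9 fell with HCC+ vesicles at 1.2 mg/mL, and 0 rose and 11 fell with HCC- vesicles. Their median log2 fold change was -0.21 and -0.46, against 0.01 and 0.05 for all tested genes. Among all tested genes 15.6% rose and 17.4% fell with HCC+ vesicles, and 24.8% rose and 28.5% fell with HCC- vesicles. Counts of this and every later list, cell markers included, are to be read against these shares, which hold under TMM scaling. Under total count scaling the median of all tested genes moved to 0.13 with HCC+ and 0.33 with HCC- vesicles. With trends with GC content and length removed it moved to 0.07 and 0.24. List counts and single genes under those settings are to be read against these medians. Under total count scaling 5 and 8 fell, and 1 rose in each. Without HCC+ replicate 1 the HCC+ count was 0 higher and 5 lower.

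The chaperone HSPA8 fell from 3982 ± 149 CPM in blank cells to 2563 ± 104 (HCC+) and 2198 ± 71.9 (HCC-). HSP90AA1, the inducible HSP90 gene, stood at 5334 ± 406 in the blank and fell to 3757 ± 433 and 2557 ± 234 CPM. HSP90AB1, its constitutive copy, had log2 fold changes of -0.33 and -0.67, and STIP1, which carries clients from HSP70 to HSP90, had -0.37 and -0.68. FKBP4, the paralogue of FKBP5 that favours receptor transport, had -0.19 and -0.62. All of these passed the test with either source, except that the HCC+ call of FKBP4 was lost under total count scaling (-0.07, adjusted p = 0.356).

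The mineralocorticoid receptor gene NR3C2 stood at 1.62 ± 0.14 CPM in the blank, 2.27 ± 0.35 with HCC+ and 1.88 ± 0.23 with HCC- vesicles at 1.2 mg/mL and was not called in either (adjusted p = 0.132 and 0.479). HSD11B2, the enzyme that inactivates cortisol, stood at 10.2 ± 1.19, 10.7 ± 1.60 and 10.8 ± 0.96 CPM and was not called (0.738 and 0.636). Total count scaling called it higher with HCC- vesicles (0.36, 0.0218), where the median of all tested genes was 0.33. HSD11B1, which regenerates cortisol, had 9 counts over all 21 libraries and was not tested.

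Among 16 coregulators of nuclear receptors, 4 rose and 4 fell with HCC+ vesicles and 5 rose and 6 fell with HCC- vesicles, with medians of -0.03 and 0.05. Shares of all genes were 15.6% higher and 17.4% lower with HCC+ vesicles, and 24.8% and 28.5% with HCC- vesicles. Total count scaling gave 7 higher and 2 lower, and 10 higher and 3 lower. The coactivator NCOA3 rose by 0.58 and 0.75 on the log2 scale, and the acetyltransferase CREBBP by 0.31 and 0.73. EP300 rose by 0.50 with HCC- vesicles and stood at 0.12, uncalled, with HCC+ vesicles. The deacetylase HDAC3 had log2 fold changes of -0.21 and -0.62, both called, the first of them not under total count scaling (-0.09), where EP300 was called with HCC+ vesicles (0.24).

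Other genes known to be induced by glucocorticoids went both ways. Of 30 tested, 10 rose and 4 fell with HCC+ vesicles and 11 rose and 7 fell with HCC- vesicles, with medians of 0.07 and 0.24. Total count scaling gave 13 higher and 3 lower, and 18 higher and 3 lower, and removal of trends with GC content and length gave 15 higher and 4 lower with HCC- vesicles. Under total count scaling the list medians were 0.19 and 0.52, where the medians of all tested genes were 0.13 and 0.33. With the trends removed the HCC- list median was 0.40, where that of all tested genes was 0.24. The lower count went to 2 with HCC+ vesicles without HCC+ replicate 1 or blank replicate 2, and to 4 with HCC- vesicles without HCC- replicate 1 or 2. The transcriptional repressor BCL6 rose by 1.45 ± 0.14 and 2.33 ± 0.15, from a blank level of 12.8 ± 2.31 CPM to 35.1 ± 8.53 for HCC+ and 64.7 ± 13.3 for HCC-. NFKBIA, the inhibitor of NF-kB, rose by 1.27 and 1.71, and the secreted protein gene CRISPLD2 by 0.98 and 1.37. The clock gene PER1, a well-known receptor target, rose by 0.26 ± 0.08 (adjusted p = 0.00712) and 0.69 ± 0.08, the first of them 0.08 and not called (0.294) with the trends removed. PER1, BCL6 and CRISPLD2 were lower with HCC+ than with HCC- vesicles, by log2 differences of -0.42, -0.89 and -0.39.

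Of 16 inflammatory genes that glucocorticoids hold back, 9 had too few counts to be tested. Of the 7 tested, 0 rose and 1 fell with HCC+ vesicles and 3 rose and 0 fell with HCC- vesicles, with medians of 0.10 and 0.37. Total count scaling, and removal of the trends, each gave 2 higher and 1 lower with HCC+ vesicles. The HCC- count was 0 higher and 1 lower without HCC- replicate 3, 1 higher and 0 lower without blank replicate 1, and 2 higher and 1 lower without blank replicate 3. The HCC+ count was 1 higher and 1 lower without HCC+ replicate 2, and 1 higher and 0 lower without blank replicate 2. CXCL2, a neutrophil chemokine, fell with HCC+ vesicles, from 0.597 ± 0.303 to 0.146 ± 0.060 CPM. PTGS2, the cyclooxygenase gene, rose from 1.11 ± 0.21 to 2.08 ± 0.56 CPM with HCC- vesicles, as did the adhesion molecule gene ICAM1 from 12.8 ± 1.68 to 16.5 ± 2.86. IL1A was called higher with HCC- vesicles at 0.357 ± 0.104 against 0.105 ± 0.127 CPM (adjusted p = 0.0415), a call lost without the filter on low counts (0.0555). With HCC+ vesicles it was called higher under total count scaling (0.0480) and with the trends removed (0.0327). Near 0 in the blank, IL1A could hardly have passed the filter on low counts without being higher elsewhere. Its rise is thus no separate result.

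Among 15 tested SGK1 substrates and genes of epithelial sodium transport, 3 rose and 3 fell with HCC+ and 7 rose and 4 fell with HCC- vesicles, with medians of 0.16 and 0.06. Total count scaling gave 6 higher and 3 lower, and 8 higher and 2 lower. NEDD4, a ubiquitin ligase, fell from 23.6 ± 2.41 CPM in blank cells to 14.3 ± 1.12 (HCC+) and 9.76 ± 0.27 (HCC-). MAPKAP1, a subunit of the mTORC2 complex that activates SGK1, had log2 fold changes of -0.31 and -0.58, both called. WNK1, a kinase of salt transport, rose by 0.52 with HCC- vesicles and stood at 0.12, uncalled, with HCC+ vesicles, where total count scaling called it at 0.24.

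The MAP kinases that DUSP1 acts on and early response genes numbered 17. Of these 2 rose and 6 fell with HCC+ vesicles and 7 rose and 8 fell with HCC- vesicles, with medians of -0.11 and 0.14. Under total count scaling it was 3 higher and 1 lower, and 9 higher and 4 lower, and with the trends removed 8 higher and 5 lower for HCC-. The HCC+ count was 1 higher and 2 lower without HCC+ replicate 3, and 1 higher and 3 lower without HCC+ replicate 1 or blank replicate 1. MAPK9, which encodes the kinase JNK2, had log2 fold changes of -0.24 and -0.89, both called, the first of them not under total count scaling (-0.12). FOSB, a subunit of the AP-1 factor, rose from 3.36 ± 0.72 to 14.0 ± 2.17 CPM with HCC- vesicles and stood at 4.11 ± 0.87 with HCC+ vesicles. BTG2, an antiproliferative early gene, rose more with HCC+ vesicles, at 64.6 ± 3.4 CPM, than with HCC- vesicles, at 48.8 ± 1.18, from 33.5 ± 1.22 in the blank, and the sources differed by 0.40 ± 0.08.

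Paralogues of the 6 genes also split. Of 24 tested, 7 rose and 7 fell with HCC+ vesicles and 9 rose and 9 fell with HCC- vesicles, with medians of 0.04 and -0.04. Beside these stand shares of all genes of 15.6% higher and 17.4% lower (HCC+), and 24.8% and 28.5% (HCC-). Total count scaling gave 9 higher and 4 lower, and 11 higher and 5 lower, and without HCC+ replicate 1 the HCC+ count was 4 lower. TSC22D4 rose with both sources, from a blank level of 28.6 ± 4.35 CPM to 59.6 ± 8.16 (HCC+) and 74.0 ± 3.93 (HCC-). TSC22D1 rose by 0.38 and 0.55. CEBPG, a sister gene of CEBPD, fell from 103 ± 8.05 CPM to 55.2 ± 6.69 and 48.3 ± 3.70.

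**Figure D4:**
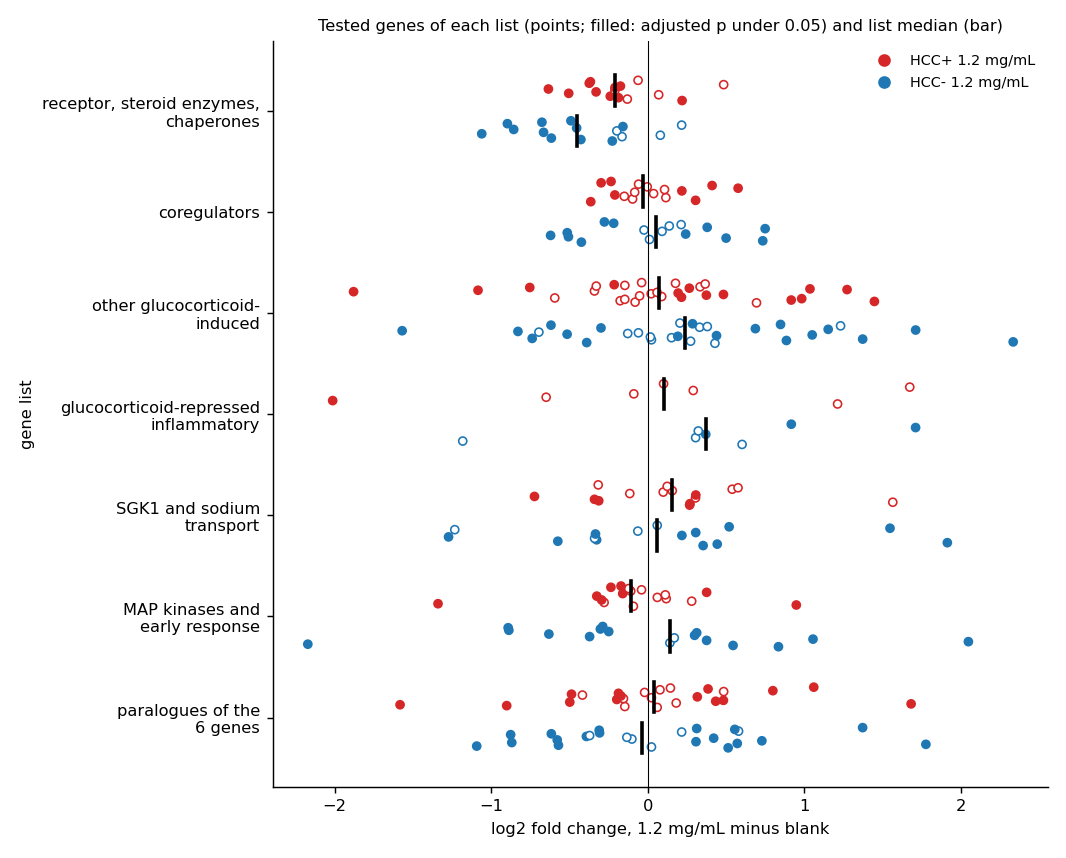
Log2 fold change against the blank at 1.2 mg/mL for every tested gene of 7 lists, HCC+ in red and HCC- in blue, filled where the adjusted p was under 0.05, with the list median as a bar. The receptor and chaperone list has medians of -0.21 and -0.46, with a few genes above 0, and the other lists also spread to both sides of 0.

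All 8 epithelial markers of HCT-116 were present in each group, summing to between 3604 and 5191 CPM. The sum was 3604 to 3909 CPM with HCC- vesicles at 1.2 mg/mL and 3855 to 4694 in the blank, but without TMM factors it was 4187 to 4541 and 3764 to 4439. With HCC+ vesicles at 1.2 mg/mL 1 rose and 1 fell, and with HCC- vesicles 1 rose and 4 fell. CLDN4 rose by 0.96 and 1.51 on the log2 scale, and CLDN7 had log2 fold changes of -0.59 and -0.71. KRT18 and EPCAM fell with HCC- vesicles, at -0.46 and -0.31, and EPCAM was not called under total count scaling (-0.03) or with the trends removed, where it stood at 0.10. Total count scaling gave 3 higher and 1 lower, and 3 higher and 2 lower, and with the trends removed it was 3 higher and 3 lower, and 2 higher and 3 lower. The HCC+ count was 1 higher and 2 lower without HCC+ replicate 2 or blank replicate 3 and 2 higher and 2 lower without blank replicate 2, which left out gave 2 higher and 4 lower for HCC-.

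Markers of other cell types were low apart from COL1A1. The sums of those of leukocytes and of endothelium and fibroblasts were higher at 1.2 mg/mL than in the blank. Of 7 leukocyte markers, S100A8 and S100A9 were at 0 in every library, 3 were tested, and all 3 rose with either source at 1.2 mg/mL, though 1 was called with HCC+ vesicles without blank replicate 1. The filter on low counts kept genes with enough counts in as many libraries as a group holds. CD14 and LYZ, near 0 in the blank, could thus hardly be tested without being higher elsewhere, and that all tested markers rose is no separate result. The 7 summed to 1.15 to 1.55 CPM in blank libraries, 2.99 to 4.19 for HCC+ and 5.12 to 6.96 for HCC-. Among the tested were CD14, from 0.138 ± 0.065 to 0.575 ± 0.419 and 1.57 ± 0.36 CPM, and LYZ, from 0.017 ± 0.029 to 0.232 ± 0.148 and 0.719 ± 0.054. HLA-DRA went from 1.15 ± 0.22 to 2.62 ± 0.26 and 3.38 ± 0.72 CPM.

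Of 6 endothelial and fibroblast markers, the 3 tested all rose with either source, and the sum was 14.8 to 18.3 CPM for the blank, 24.2 to 33.9 for HCC+ and 35.8 to 40.8 for HCC-. PECAM1 went from 0.090 ± 0.073 to 1.59 ± 0.50 and 3.91 ± 1.08 CPM, VWF from 0.429 ± 0.149 to 1.34 ± 0.16 and 2.77 ± 0.19, and COL1A1 from 15.5 ± 1.94 to 26.0 ± 4.70 and 30.8 ± 3.01. COL1A1 made up most of the sum, also in blank cells, which received no vesicles. PECAM1, near 0 in the blank, falls under the same limit of the filter. Of 7 platelet and erythroid markers, PPBP and PF4 were at 0 in every library, and the sum was 3.49 to 3.96 CPM for the blank, 2.87 to 3.95 for HCC+ and 1.95 to 2.89 for HCC-. GP1BA fell with HCC- vesicles at a log2 fold change of -0.76. Of 7 hepatocyte markers, APOB and FGA were at 0 in every library, and the sum was 2.00 to 2.54, 3.17 to 3.74 and 2.30 to 3.36 CPM, with SERPINA1 called higher with HCC+ vesicles at 0.58 (adjusted p = 0.0417). That call was lost without HCC+ replicate 1 or 3, blank replicate 1 or 3, or the filter on low counts, and SERPINA1 was also called with HCC- vesicles under total count scaling (0.55). The part of these markers in the changes of the 6 genes was not tested.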

How the data were processed

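RNA-seq counts of 21 HCT-116 libraries were used. Per the submitters' processing notes, reads were trimmed with cutadapt 3.4, aligned to GRCh38 with HISAT2 2.2.1 and counted with featureCounts 2.0.1. The authors deposited raw counts per gene. The sources used here do not give the annotation release or how strand and multimapping reads were treated, so reads of overlapping antisense genes could not be separated.

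Symbols came from a table of Ensembl identifiers, with 41967 matches among 65065. edgeR 4.0.16 (R 4.3.3) fitted 7 group means with TMM factors, filterByExpr and robust quasi-likelihood dispersions (14 residual degrees of freedom). The F test was 2-sided, Benjamini-Hochberg adjusted over 19556 genes, in 12 comparisons. Those against the blank share its 3 libraries. A standard error is the size of the log2 fold change divided by the square root of its F. Totals of 31.22 to 64.01 M counts set the precision. The method was tested on simulated data in which a small set of genes changed in a single group, as many up as down. That setting cannot show how TMM scaling behaves where 33.0% or 53.3% of all genes are called. The members and lists were chosen with earlier results of these data known. From each list, up to 4 called genes with the smallest p at 1.2 mg/mL against the blank were named, plus NR3C2, HSD11B1, HSD11B2 and PER1. Some genes that this rule or the likeness search named are not reported here. The promoter motifs were chosen after matches had been looked at. Likeness was sought among tested genes whose mean log2 CPM reached 1. HCC+ and HCC- groups were taken from the sample titles.

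Alternatives were RLE factors, total count scaling, no filter, DESeq2 1.42.0, a replicate block, only the groups compared and leaving out each library. Removal of trends with GC content and length was added after seeing the data. Replicate numbers were not used to pair libraries in the main fit. Of 63 pairs sharing a number, 1 had a residual correlation over 0.1, which cannot exclude a small shared effect. Figures used matplotlib under Python.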

Additional observations from a re-analysis of the deposited data

Results flagged for a closer look

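The step from 0.24 to 1.2 mg/mL differed between the sources for 3 genes by the test of that difference, HCC+ minus HCC-. On the log2 scale it was -0.70 for SGK1, -1.40 for TSC22D3 and 0.74 for FKBP5. SGK1 rose and FKBP5 fell in both steps, by less with HCC+ vesicles, whereas the HCC+ step of TSC22D3 was -0.15 and not called (adjusted p = 0.389).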

How the results depend on the processing

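Across planned and added settings and left-out libraries, SGK1, FKBP5 and DUSP1 at 1.2 mg/mL against the blank, and TSC22D3 with HCC- vesicles, kept their direction and call. With HCC- vesicles at 0.048 mg/mL against the blank the count was 3 with DESeq2, 0 with only the groups compared, 0 with trends with GC content and length removed, and 0 to 3 with a library left out. For the HCC- step from 0.24 to 1.2 mg/mL, leaving out a library gave 3 to 5 calls. Removing the trends turned CEBPD to -0.058 with HCC+ at 1.2 mg/mL and to -0.012 in the HCC+ dose step, FKBP5 to 0.023, NR3C1 to 0.048 and TSC22D3 to -0.021 with HCC- at 0.048 mg/mL, and NR3C1 to -0.00065 in the difference of steps. Total count scaling turned TSC22D3 with HCC+ at 1.2 mg/mL to 0.053. With a library left out, DUSP1 between the sources at 1.2 mg/mL ranged from -0.18 to 0.0053, CEBPD in the HCC+ dose step from -0.035 to 0.085, and DUSP1 in the difference of steps from -0.16 to 0.062. None of these turned values was called, and the cause was not tested. Total count scaling moved the median of all genes to 0.13 with HCC+ and 0.33 with HCC- vesicles at 1.2 mg/mL. Removing the trends moved it to 0.07 and 0.24. The replicate block lowered the HCC+ dose step to 2 calls and changed no other count of called members. The 5 comparisons with no called member gave 0 calls in 390 values. CXCL2, IL1A, CD14 and LYZ rest on few counts.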
